A study of Mus musculus with 6 samples.

Results

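Beko, a mouse leukaemia cell line of the T lineage, was given a Notch1-ER fusion, and its gene expression was measured on 2 arrays, 1 of cells treated with hydroxytamoxifen (OHT), which switches the fusion on, and 1 of cells treated with ethanol, its vehicle. The members are the genes whose highest level over all 6 arrays of the series reached 5.54 on the log2 scale, the median over all genes of the mean level. This floor kept 12150 of the 22414 genes in the table. Each member's value is its log2 level with OHT minus its log2 level with ethanol, so that a difference of 1 is a 2-fold difference.

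All groups were Beko cells, with 1 array each. The Notch1-ER line received OHT at 0.75 μg/mL, or ethanol, for 48 h. A line carrying DNMAML-ER also received OHT at 0.75 μg/mL, or ethanol, for 48 h. Beko cells with no fusion received 10 μM DAPT, an inhibitor of γ-secretase, or the vehicle DMSO, both for 24 h, and are called parental here. Cells were infected with a fusion and then selected, and the labels do not say which promoter drives it or whether a line is 1 clone or a pool. The treatment protocol writes 5-OHT and the series' design text 4-OHT. RNA was taken from whole cultures, so fewer cells expressing a gene and less RNA per cell cannot be told apart.

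Notch1 is a surface receptor. When a neighbouring cell's ligand engages it, γ-secretase cuts it and frees its intracellular part, which enters the nucleus, binds the DNA-binding protein RBPJ and recruits Mastermind to switch genes on. In the thymus this signal commits progenitors to the T lineage, and its constant activation is a known driver of T-cell leukaemia. A fusion to the ligand-binding part of the oestrogen receptor is held inactive until OHT binds it, so it serves as a switch. DNMAML, a truncated Mastermind, sits in the RBPJ complex but cannot activate transcription, and DAPT stops the receptor from being cut.

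The table names each gene by a mouse Ensembl ID and gives no symbol. The gene table used here, of the GRCm38.p6 assembly, lists 0 Ensembl IDs, so none of the 22414 IDs could be matched and no gene is given a name, function or sequence below. The levels of Notch1, Esr1 and Maml1, which would check the fusions, and those of T-cell markers, which would check the cell type, were not analysed here. Medians of the 6 arrays over the 12150 genes lay between 7.58 and 7.71 on the log2 scale. The precision of all values is limited by having 1 array per condition.

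Few genes differed by a large amount in the Notch1-ER pair, and more of them were higher with OHT than lower. Of the 12150 genes, 64 (0.527%) differed at least 2-fold, 46 of them (0.379%) higher with OHT and 18 (0.148%) lower. At 1.5-fold, 183 genes were higher (1.51%) and 95 lower (0.782%), together 2.29% of the 12150. At 3-fold, 8 were higher and 4 lower, and at 4-fold 4 were higher and 1 lower. The middle of the distribution was narrow, with a lower quartile of -0.14, a median of -0.01 and an upper quartile of 0.11 on the log2 scale. The extremes were -2.01 and 3.28. There is no replicate error, so no difference of this pair can be tested.

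The ethanol arrays of both fusion lines show how far arrays without OHT differed. In 8 genes the Notch1-ER ethanol array was at least 2-fold above that of the DNMAML-ER line, and in 5 at least 2-fold below it, together 0.107% of the 12150. The count of 64 in the Notch1-ER pair was 4.92 times as large. This ratio depends on the floor, being 2.10 without one (101 against 48 genes) and 8.67 where the mean level had to reach the floor (52 against 6). At 1.5-fold the ethanol arrays differed in 61 genes higher and 64 lower, close to even, where the Notch1-ER pair had 65.8% of its 278 genes higher. The skew was nearly as large in the other treated pairs, with 64.7% higher in the DNMAML-ER pair and 64.0% in the DAPT pair. They also had more genes at 2-fold than the 64, at 96 and 198. At 2-fold the ethanol arrays were not even, with 61.5% of their 13 genes higher. That share varied from 33.3% of 6 genes, with the floor on the mean level, to 82.4% of 17, with arrays centred on their medians. The ethanol arrays come from lines with different fusions, so their spread is not a replicate error.

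The count exceeded that between the ethanol arrays at low, middle and high levels among the genes that passed the floor. The 12150 genes were split into 3 equal parts by their mean level over the 6 arrays. In the lowest part 34 genes differed 2-fold between OHT and ethanol in the Notch1-ER line, against 11 between the ethanol arrays. In the middle part there were 19 against 1, and in the highest part 11 against 1. Among the 10264 genes under the floor the counts were alike, with 37 (0.360%; 15 higher and 22 lower) against 35 (0.341%). The standard deviation across genes was 0.27, 0.24 and 0.20 in the Notch1-ER pair, from the lowest to the highest part, and 0.24, 0.18 and 0.13 between the ethanol arrays. The scatter was narrower at higher levels in both comparisons, and the lowest part held most of the 2-fold differences in both.

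**Figure D1:**
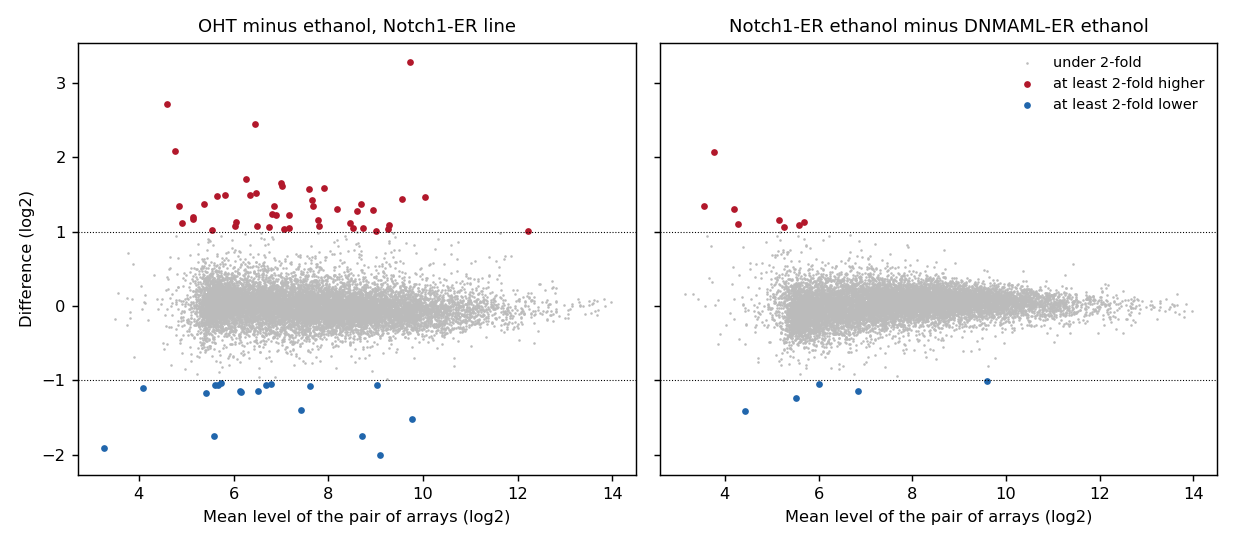
Each point is 1 of 12150 genes, with the mean log2 level of a pair of arrays on the x axis and the log2 difference on the y axis, for OHT minus ethanol in the Notch1-ER line on the left and for the Notch1-ER minus the DNMAML-ER ethanol array on the right. Dotted lines mark a 2-fold difference, which 64 genes reach on the left and 13 on the right.

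The 46 genes higher with OHT had a median difference of 1.28 on the log2 scale, or 2.43-fold. The middle of this set, between its quartiles, ran from 1.08 to 1.49. Their levels on the Notch1-ER OHT array ran from 5.46 to 12.72 with a median of 7.74, against 3.23 to 11.71 with a median of 6.41 on the Notch1-ER ethanol array. On the other arrays the medians were 6.15 (DNMAML-ER with OHT), 6.45 (DNMAML-ER with ethanol), 6.45 (DAPT) and 6.63 (DMSO). The median was thus highest on the Notch1-ER OHT array and lay between 6.15 and 6.63 on the other 5, while the ranges of the arrays overlapped.

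Most of these genes were at or above the floor without OHT too. On the Notch1-ER ethanol array 32 of the 46 reached the floor. A further 12 passed from under the floor with ethanol to above it with OHT. The last 2 stayed under the floor on both Notch1-ER arrays and entered through their level on another array.

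The array with OHT was the one that stood apart for most of them. It was the highest of the 6 for 39 of the 46 genes, where over all 12150 genes it was the highest for 14.2%. The Notch1-ER ethanol array was the lowest of the 6 for 7 of the 46, against 11.0% of all genes. For 2 genes the ethanol array was the lowest while the OHT array was not the highest. The level with OHT exceeded every other array by at least 1.5-fold in 27 genes and by at least 2-fold in 15. The genes were chosen for the gap between these arrays, so these counts are a description. Some of the 27 and of the 15 reached the floor only on the Notch1-ER OHT array. They entered only through the array on which they are high. For 31 of the 46 genes, the level with ethanol lay within the range of the 4 arrays outside the pair. The share of all genes for which this held was not computed, so the count cannot be read as particular to these genes.

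The gene that was highest relative to its ethanol level was ENSMUSG00000078202. Its log2 level was 11.36 with OHT in the Notch1-ER line, against 8.09 with ethanol. It was 7.28 and 7.67 in the DNMAML-ER line with OHT and ethanol, and 7.14 and 8.41 in parental cells with DAPT and DMSO. The Notch1-ER difference of 3.28, or 9.69-fold, left the OHT array 2.95 above the highest of the others, while those 5 arrays spanned 1.27. The gene was 2.41-fold lower with DAPT than with DMSO, and 1.32-fold lower with OHT than with ethanol in the DNMAML-ER line.

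ENSMUSG00000008540 reached the floor only on the Notch1-ER OHT array. Its log2 level was 5.95 with OHT in the Notch1-ER line, against 3.23 with ethanol, and it lay between 2.99 and 3.19 on the 4 arrays outside the pair. All 5 arrays other than the Notch1-ER OHT array were under the floor, so no fold is given, and a lower level under an inhibitor could not have been seen. The gene entered only through the array on which it is high.

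The 18 genes lower with OHT had a median difference of the size 1.14, or 2.20-fold. Their levels on the Notch1-ER OHT array ran from 2.30 to 9.01 with a median of 5.76, against 4.21 to 10.53 with a median of 6.91 on the Notch1-ER ethanol array. On the other arrays the medians were 7.02 (DNMAML-ER with OHT), 6.90 (DNMAML-ER with ethanol), 7.29 (DAPT) and 7.05 (DMSO). Both Notch1-ER arrays reached the floor in 11 genes, 5 passed under it with OHT, and 2 were under it on both.

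For these genes, which were chosen for a low level with OHT, the positions among the arrays are again a description. The OHT array was the lowest of the 6 for 15 of the 18, against 13.1% of all genes, and the Notch1-ER ethanol array was the highest for 4, against 18.1% of all genes. The level with OHT was below every other array by at least 1.5-fold in 9 genes and by at least 2-fold in 3. For 12 of the 18 genes, the level with ethanol lay within the range of the 4 arrays outside the pair, and here too the share of all genes was not computed.

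ENSMUSG00000079018 had the lowest difference of the whole pair. Its log2 level was 8.10 with OHT in the Notch1-ER line, against 10.10 with ethanol. It was 10.28 and 10.08 in the DNMAML-ER line with OHT and ethanol, and 10.81 and 9.80 in parental cells with DAPT and DMSO. It was thus 4.02-fold lower with OHT in the Notch1-ER line and 2.01-fold higher with DAPT, while it was 1.15-fold higher with OHT in the DNMAML-ER line. The 5 other arrays were all above the Notch1-ER OHT array, by 1.70 or more.

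ENSMUSG00000075602 was also lowest on the Notch1-ER OHT array. Its log2 level was 7.84 with OHT, against 9.59 with ethanol, a difference of -1.75 or 3.37-fold lower. It was 9.66 and 9.55 in the DNMAML-ER line with OHT and ethanol, and 9.13 and 8.51 in parental cells with DAPT and DMSO. It was 1.53-fold higher with DAPT, and the DNMAML-ER arrays differed by 0.11. These 4 genes have the largest differences in each direction among genes that reached the floor on a Notch1-ER array, and were chosen after their values were seen.

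**Figure D2:**
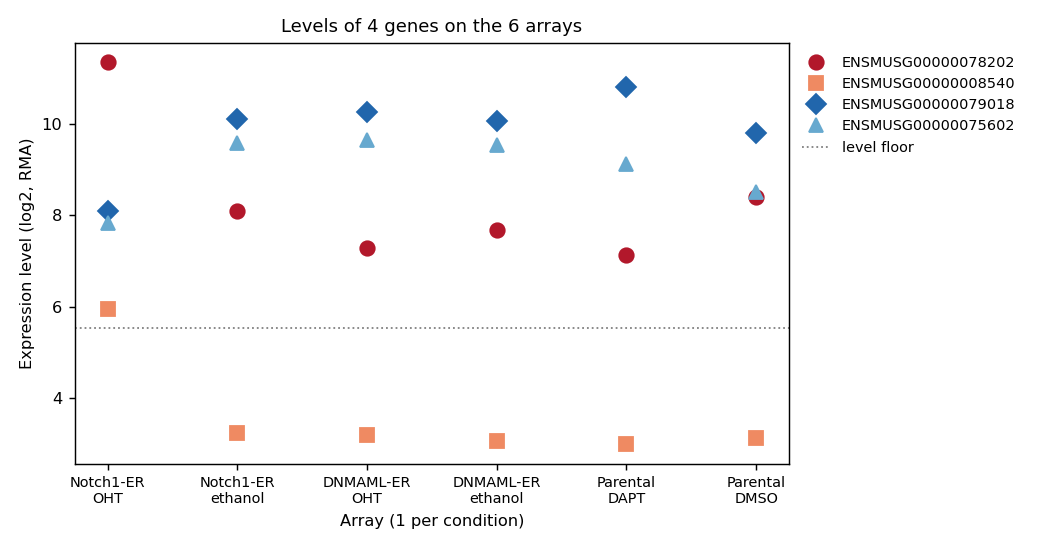
Log2 levels of 4 genes on each of the 6 arrays, with the Notch1-ER arrays on the left, and each marker standing for 1 array. The Notch1-ER OHT array is the highest of the 6 for ENSMUSG00000078202 (11.36) and ENSMUSG00000008540 (5.95), and the lowest for ENSMUSG00000079018 (8.10) and ENSMUSG00000075602 (7.84).

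Parental cells with DMSO, which carry no fusion, give another level to set these genes against. The 46 higher genes lay above DMSO on the Notch1-ER OHT array in 43 cases, by a median of 1.06, whereas on the Notch1-ER ethanol array 15 lay above DMSO and 31 below, with a median of -0.23. The 18 lower genes lay below DMSO on the OHT array in 16 cases, with a median of -1.39, and on the ethanol array 9 lay above DMSO and 9 below, with a median of 0.02. These pairs also differ in vehicle and in time, and they share the arrays the genes were chosen on. The shares of all genes above or below DMSO were not computed, so these counts are a description only.

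**Figure D3:**
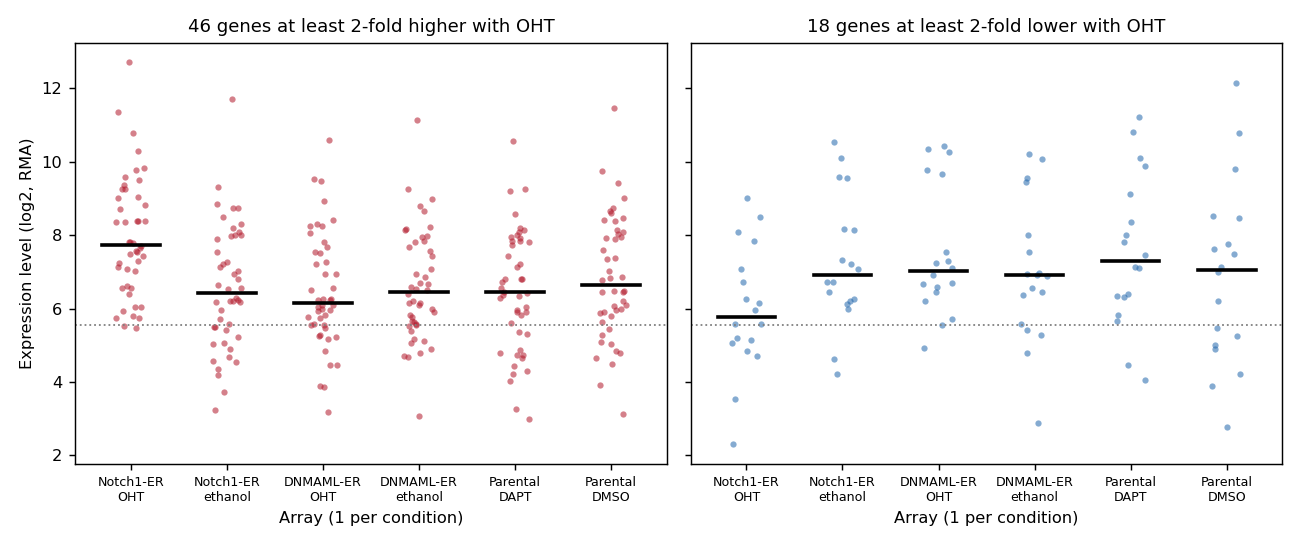
Log2 levels on each of the 6 arrays of the 46 genes at least 2-fold higher (left) and the 18 at least 2-fold lower (right) with OHT in the Notch1-ER line. Points are genes, bars their medians, and the dotted line the floor of 5.54. The median of the 46 is 7.74 on the Notch1-ER OHT array and 6.15 to 6.63 on the others, and that of the 18 is 5.76 and 6.90 to 7.29.

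The question of whether genes that follow Notch1-ER also follow a loss of Notch activity was put to the DAPT and DNMAML-ER pairs, which share no array with the Notch1-ER pair. A gene can pass the floor through an array of those pairs, so only genes that reached it on a Notch1-ER array were read there. These were 44 of the 46 higher and 16 of the 18 lower genes, and 11580 genes in all. With DAPT, 14 of the 44 higher genes (31.8%) were at least 1.5-fold lower than with DMSO, against 2.63% of the 11580. Another 5 (11.4%) were at least 1.5-fold higher with DAPT, against 4.72%, and 25 were within 1.5-fold. Of the 16 lower genes, 7 (43.8%) were at least 1.5-fold higher with DAPT, against 4.72%, and 4 (25%) at least 1.5-fold lower, against 2.63%. The floor was not applied to the DAPT and DMSO arrays. The 14 include a gene under it on both of these arrays, and some of the 7 were under it on both.

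The DNMAML-ER pair gave smaller counts. Of the 44 higher genes, 9 (20.5%) were at least 1.5-fold lower with OHT than with ethanol in the DNMAML-ER line, against 1.23% of the 11580, and 3 (6.82%) were at least 1.5-fold higher, against 2.18%. The floor was not applied to the DNMAML-ER arrays, and the 9 include a gene under it on both of them. Of the 16 lower genes, 3 (18.8%) were at least 1.5-fold higher, against 2.18%, and 2 (12.5%) at least 1.5-fold lower, against 1.23%. The shares were thus above those of all genes in both directions. For the 44 higher genes more lay opposite to Notch1-ER than along with it in both pairs, while the counts for the 16 lower genes are small and closer to each other.

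Read gene by gene, the largest class of the 44 higher genes was the 21 within 1.5-fold in both inhibitor pairs (47.7%), which held 91.1% of the 11580. Some of these 21 were under the floor on every array of both inhibitor pairs, so a lower level there could not have been seen. Another 6 of the 44 were at least 1.5-fold lower in both (13.6%, against 0.509%). With DAPT alone 8 were lower (18.2%, against 2.09%) and 3 higher (6.82%, against 3.44%). With DNMAML-ER alone 2 were lower (4.55%, against 0.648%) and 2 higher (4.55%, against 0.950%). The last 2 were 1 gene higher in both, against 1.21% of all genes, and 1 for which DAPT gave a higher and DNMAML-ER a lower level, against 0.0777%.

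Among the 16 lower genes, 2 were at least 1.5-fold higher in both inhibitor pairs (12.5%, against 1.21%). With DAPT alone 5 were higher (31.3%, against 3.44%) and 3 lower (18.8%, against 2.09%). With DNMAML-ER alone 1 was higher (6.25%, against 0.950%) and 1 lower (6.25%, against 0.648%). A further 1 was lower in both, against 0.509%, and 3 were within 1.5-fold in both. Genes within 1.5-fold under an inhibitor are not shown to be unaffected by it, since each pair is 1 array against 1. In both sets the classes also count genes under the floor on both arrays of the pair in which they differed.

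**Figure D4:**
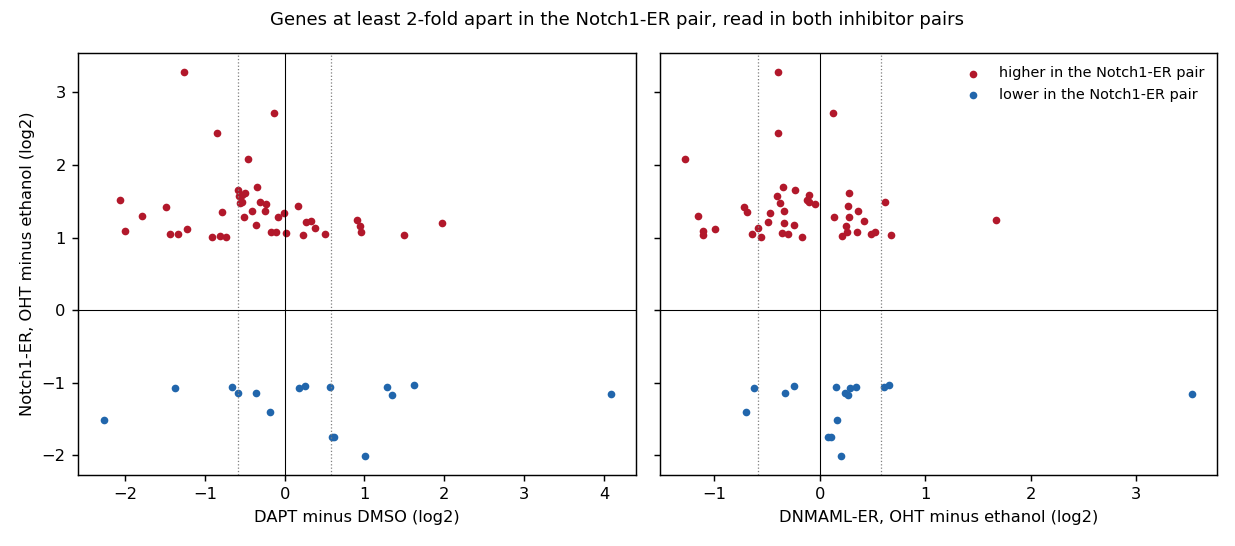
The log2 difference in the Notch1-ER pair (y axis) of 44 higher and 16 lower genes that reached the floor on a Notch1-ER array, against their log2 difference with DAPT minus DMSO (left) and with OHT minus ethanol in the DNMAML-ER line (right). Each point is 1 gene, and dotted lines mark 1.5-fold. Of the 44 higher genes 32 lie below 0 with DAPT and 28 with DNMAML-ER, and of the 16 lower genes 10 and 12 lie above 0. Of all 12150 genes, 5746 lay below 0 with DAPT and 5852 with DNMAML-ER, and 6401 and 6294 lay above 0. Unlike the genes shown, these 12150 include genes that reached the floor only outside the Notch1-ER pair.

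OHT was given in both fusion lines, and cells given OHT without a fusion were not analysed here. Over the 12150 genes at 1.5-fold, the DNMAML-ER pair had 293 higher (2.41%) and 160 lower (1.32%), beside 183 and 95 in the Notch1-ER pair. The lines had 22 higher genes in common, which is 12% of the Notch1-ER list and 7.51% of the DNMAML-ER list. They had 14 lower genes in common, 14.7% and 8.75% of these lists. In opposite directions, 22 were higher in the Notch1-ER and lower in the DNMAML-ER line (12% and 13.8% of the lists), and 21 the reverse (22.1% and 7.17%). Some of these genes were under the floor on both arrays of a line. Those reaching it in both lines were 18 of the 22 higher and 14 of the 14 lower genes in common. In opposite directions they were 19 of the 22 and 16 of the 21. At 2-fold the DNMAML-ER pair had 62 genes higher (0.510%) and 34 lower (0.280%). For the genes that differed alike in both lines, a response to OHT itself and one to the fusions cannot be told apart.

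Genes that mark phases of the cell cycle lay close to the median of all genes. Of the marker genes supplied by Ensembl ID with the scran package, those that mark 1 phase only and passed the floor were 11 for G1, 29 for S and 27 for G2M. Their median differences in the Notch1-ER pair were -0.02, -0.02 and 0.03, against -0.01 for all 12150 genes. Of these markers 0 differed by 1.5-fold, against 2.29% of all genes. In lists this short that share is only a few genes, so the 0 does not set the markers apart. Their values ran from -0.35 to 0.51 for G1, from -0.30 to 0.18 for S and from -0.23 to 0.34 for G2M. The lists are short, and they were chosen after the data were seen.

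The 2 genes just inside the 2-fold size on the higher side differed by 1.01 and 1.01, and those just outside by 0.99 and 0.98. On the lower side they differed by -1.04 and -1.05 inside, and by -0.99 and -0.96 outside. For the floor, the 2 genes just inside had Notch1-ER differences of -0.56 and -0.48, and those just outside -0.25 and 0.20, with highest levels of 5.54 on both sides.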

How the data were processed

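The authors deposited RMA expression on the log2 scale, 1 value per gene and array, per the submitters' processing notes for RMA (no version). The scale itself was read from the values, which run from 1.51 to 14.0 with 0 missing. RMA corrects each array's background, sets the distributions of the arrays equal and summarises the probes of a probe set, so a change in total RNA per cell would be absorbed. The array model, the annotation and the genome build were not given in the sources used here.

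Differences were computed with Python 3.11.15 as treated minus vehicle, and counted at 2-fold (1 on the log2 scale) and 1.5-fold (0.585). The counting was tested on simulated data with known differences far larger than the added noise. That checks the code and not the precision of the counts. With 1 array per condition no test was run. Second quantile and cyclic loess normalizations used limma 3.58.1 in R 4.3.3. Cell cycle markers came from scran 1.30.0. The naming rule covered every gene with a symbol that differed 2-fold; with 0 IDs matched, the 24 gene lists and a promoter motif search were not run, and 4 IDs are printed. Members and lists were chosen with earlier results of these data known.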

Additional observations from a re-analysis of the deposited data

Results flagged for a closer look

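With OHT, 7 genes differed at least 2-fold in opposite directions in the Notch1-ER and DNMAML-ER lines. Of these, 4 were higher with OHT in the Notch1-ER line and lower in the DNMAML-ER line, which is 8.70% of the 46 and 11.8% of the 34 genes of these lists. The other 3 went the other way round, 16.7% of 18 and 4.84% of 62. Of all 12150 genes, 0.280% were at least 2-fold lower and 0.510% higher in the DNMAML-ER line. In the Notch1-ER line these shares were 0.148% and 0.379%. For 3 of the 7, both arrays of at least 1 of the lines were under the floor, and the other 4 reached it in both lines. Of these 3, 1 was under the floor on every array of both lines and entered through the DAPT array. At the same size the lines had 2 genes in common that were higher with OHT (4.35% of 46 and 3.23% of 62) and 0 that were lower. This contrast of lines was not tested, since every value comes from a single array.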

How the results depend on the processing

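With 1 array per condition, no value has a replicate error, and levels near the floor are the least certain. The count of 64 genes for the Notch1-ER pair was 101 without the floor, with 61 higher (60.4%, against 71.9% with the floor), because more genes enter, and 278 at 1.5-fold. At 1.5-fold the other counts were 453 for the DNMAML-ER pair, 972 for DAPT and 125 between the ethanol arrays. Between the ethanol arrays the count of 13 was 48 without the floor and 6 where the mean level had to reach the floor. Second quantile normalization, cyclic loess and centring on array medians gave 63, 66 and 60 genes for the Notch1-ER pair, sharing 63, 63 and 59 with the 64, and all 64 kept their direction under these 3. Centring moved the share of higher genes to 78.4% for DAPT, against 64.6%, and to 82.4% between the ethanol arrays, against 61.5%. The 4 printed genes stayed beyond 2-fold in the same direction under all 3, the smallest difference being -1.69. No paired analysis was possible because each condition has 1 array and no test was made. The alternatives for the medians of the preset gene lists were not run, since no list could be matched.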
